A study of Homo sapiens with 4 samples.

Results

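The nucleoporins, which build the nuclear pore, and the receptors that carry cargo through it were examined in MOLM-13 cells, a line from acute myeloid leukaemia, with and without forced expression of GADD45G, a small stress-response protein. Genes were taken by name: protein-coding genes with a symbol of NUP, KPNA, KPNB, IPO, XPO or TNPO followed by a digit, and NDC1, TPR, RANBP2, AAAS, SEH1L, RAN and RCC1. This gave 53 genes, all among the 26601 symbols listed for all 4 libraries. Another 28 matching symbols that RefSeq did not list as protein-coding were left out. Total RNA was sequenced from 2 groups. The GADD45g group, named as in the sample titles, received dox (doxycycline) at the labelled 1 mg/ml over 4 days and has 2 libraries. The untreated control group was grown without dox and also has 2 libraries. Libraries are numbered by their titles, and the design text calls them biological replicates. Dox and GADD45G expression were varied as one, and their effects cannot be told apart. No source used here gives the vector, its promoter or whether the cells are a single clone.

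The nuclear pore is a channel through the nuclear envelope. Its scaffold of Y-shaped and inner ring complexes is held by membrane proteins, and nucleoporins with phenylalanine-glycine (FG) repeats fill the channel. Importins and transportins release their cargo in the nucleus when they meet Ran bound to GTP, whereas exportins bind cargo together with Ran-GTP and let it go in the cytoplasm. RCC1, on chromatin, charges Ran with GTP.

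Libraries GADD45g 1 and 2 held 18895470 and 15968886 reads, and controls 1 and 2 held 18778791 and 15683931, as recovered from the deposited RPKM (reads per kilobase of gene, scaled to library depth). GADD45G was at 3236 and 2118 RPKM in GADD45g cells, against 10.5 and 0.289 RPKM in control cells. Of 7 myeloid markers, PTPRC, CD33, SPI1, ANPEP and ITGAM were above 1 RPKM in every library, while MPO stayed between 0.162 and 0.278 RPKM and FLT3 was at 0.0889 and 0.0451 RPKM in GADD45g cells, against 0.958 and 1.19 RPKM in control cells. Epithelial markers separated the libraries by number and not by group: the 7 genes summed to 40.8 and 0.245 RPKM in GADD45g 1 and 2, and to 41.7 and 0.423 RPKM in controls 1 and 2. Of these 7, 6 passed 1 RPKM in both libraries numbered 1 and 0 in both numbered 2, where EPCAM and KRT19 were at 0. The 5 fibroblast markers summed to at most 0.476 RPKM.

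Promoters are shown for genes that moved together. RAN, IPO7 and KPNA3 fell in GADD45g cells and hold the E-box CACGTG, a palindrome bound by MYC and related factors, and NUP210 had the largest decrease and holds none. The windows run from 250 bases before to 50 bases after the gene start (RefSeq, GRCh38.p14, whereas the expression values are on hg19), 5′ to 3′, with the E-box in capitals.
RAN, chr12:130871816-130872115, plus strand: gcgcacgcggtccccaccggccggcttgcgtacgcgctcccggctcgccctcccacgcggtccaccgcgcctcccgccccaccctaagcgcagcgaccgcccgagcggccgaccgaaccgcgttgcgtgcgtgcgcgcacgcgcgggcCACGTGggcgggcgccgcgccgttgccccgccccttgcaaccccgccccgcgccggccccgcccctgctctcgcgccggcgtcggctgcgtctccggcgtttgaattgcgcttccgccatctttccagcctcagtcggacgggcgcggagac
IPO7, chr11:9384402-9384701, plus strand: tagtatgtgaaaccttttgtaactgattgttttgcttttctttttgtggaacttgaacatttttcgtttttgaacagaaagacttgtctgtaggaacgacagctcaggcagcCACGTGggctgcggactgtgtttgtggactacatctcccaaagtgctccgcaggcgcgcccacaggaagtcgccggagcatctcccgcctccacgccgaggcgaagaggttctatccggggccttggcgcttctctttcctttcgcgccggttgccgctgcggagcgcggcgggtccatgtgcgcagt
KPNA3, chr13:49792633-49792932, minus strand: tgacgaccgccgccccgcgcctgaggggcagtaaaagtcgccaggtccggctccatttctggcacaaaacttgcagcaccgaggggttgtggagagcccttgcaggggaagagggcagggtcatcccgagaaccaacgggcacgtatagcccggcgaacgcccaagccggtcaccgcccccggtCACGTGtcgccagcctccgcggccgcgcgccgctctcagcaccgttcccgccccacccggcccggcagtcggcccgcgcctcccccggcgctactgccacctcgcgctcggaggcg
NUP210, chr3:13420273-13420572, minus strand: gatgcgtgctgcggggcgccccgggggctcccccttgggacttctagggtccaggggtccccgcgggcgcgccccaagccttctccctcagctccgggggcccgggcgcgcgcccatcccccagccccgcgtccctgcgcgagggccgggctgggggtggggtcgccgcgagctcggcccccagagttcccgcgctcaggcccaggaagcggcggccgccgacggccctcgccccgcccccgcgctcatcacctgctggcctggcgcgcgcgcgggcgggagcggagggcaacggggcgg

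A window was found for 47 of the 53 genes, and 7 of these (14.9%) held CACGTG, which is the same on both strands, against 8.9% of 15843 protein-coding promoters and 10.6% of the 8282 promoters of tested genes. It was held by 3 of the 24 windows of genes that fell (12.5%), all printed above. Among the 20 windows of genes tested but not called, 3 held it (15.0%), those of NUP188, NUP50 and TNPO2. The first match lay at position -102 from the start in RAN, -138 in IPO7 and -66 in KPNA3. A match describes letters in the window, and binding was not measured.

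Of the 53 genes, 49 averaged at least 1 RPKM and were tested. GADD45g cells had 26 of these lower and 0 higher (limma, adjusted p under 0.05 over 10771 genes), a share of 53.1% lower. Over all tested genes 26.7% were lower and 12.2% higher. The median change in log2(RPKM + 1) was -0.69 for the transport genes and -0.21 for all tested genes. Without an adjustment, p was under 0.05 for 1 transport gene with a positive change (NUP58), and voom on recovered reads called 0 higher. Both GADD45g values lay below both controls for 37 genes and above both for NUP58 and KPNA6, where 45.8% and 24.1% of all tested genes did so. These are bulk samples, in which fewer cells of a type and less RNA per cell cannot be told apart.

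Scaling moved these counts in part. TMM scaling (trimmed mean of M values) brought the median of all tested genes to 0.00. It called 19 of the 49 transport genes lower and 1 higher (NUP58), against 2046 (19.0%) and 1917 (17.8%) of all 10771 genes. The median of the transport genes was then -0.47. Leaving out GADD45g 1 left 17 calls, and 17 of the 26 genes were called in every setting in which they were tested. A tested gene had 44 to 13152 reads in a library, with a median of 1480.

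**Figure D1:**
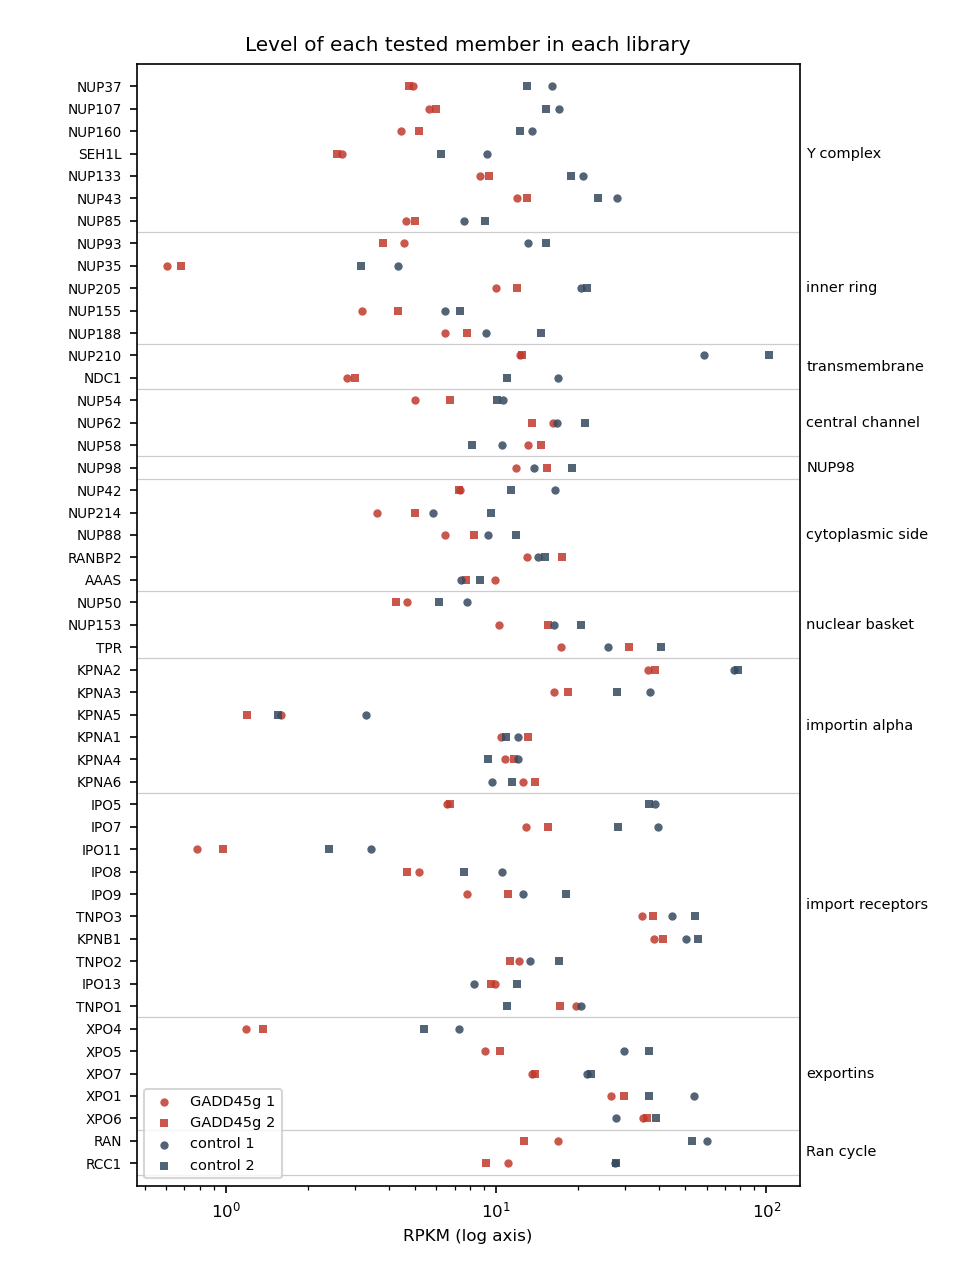
RPKM on a log axis of each of the 49 tested genes in each library, GADD45g in red and untreated control in grey-blue. All 7 genes grouped as Y complex have both GADD45g points left of both control points. The groups overlap for NUP98, RANBP2, AAAS, TPR, KPNA1, KPNA4, KPNA5, IPO13, TNPO1 and XPO6.

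Because the epithelial markers differed between libraries of the same group, differences were also taken within each number. Of the 49 genes, 44 were lower in GADD45g 1 than in control 1, 43 in GADD45g 2 than in control 2, and 40 in both. Such counts were not taken over all genes. In the fit the change was negative for 41 of the 49 genes, beside 6688 of all 10771 tested genes. The median difference was -0.84 in the libraries numbered 1 and -0.64 in those numbered 2, against -0.20 and -0.22 over all tested genes. All 26 called genes were lower within both numbers. They were called on these same libraries, with both GADD45g values below both controls in each, so this is no separate support. The epithelial markers were at or near 0 in the libraries numbered 2. The spread within a group was often wider than counting error: the 95% counting intervals (exact Poisson, on reads at the gene length chosen) of the 2 GADD45g libraries were apart for 27 of the 49 genes, and those of the 2 controls for 42.

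**Figure D2:**
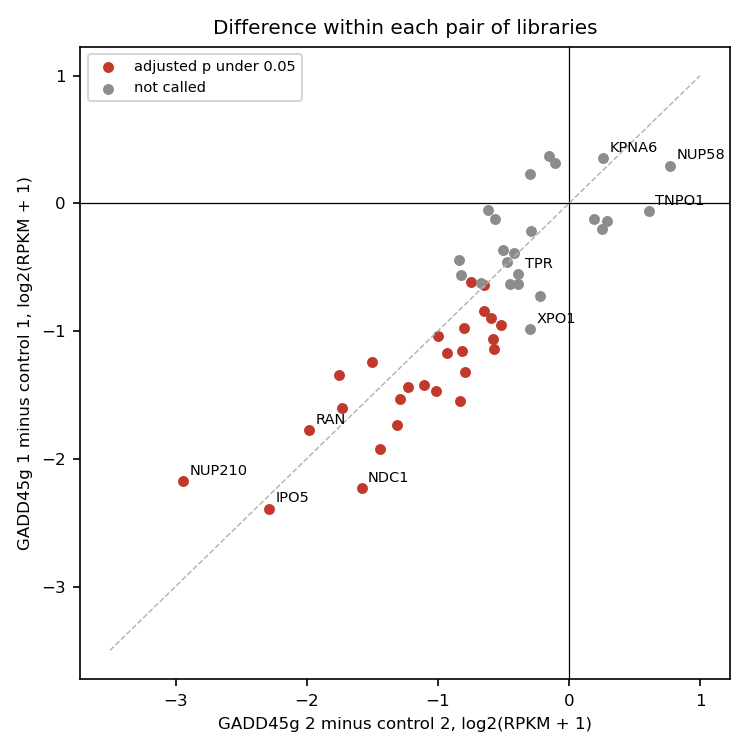
Difference in log2(RPKM + 1) between GADD45g and untreated control in the libraries numbered 1 and in those numbered 2, for the 49 tested genes, with called genes in red. All 26 called genes, which were chosen on these same libraries, lie below 0 on both axes.

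The Y complex forms the outer rings of the scaffold, and all 7 genes grouped under it here fell (median log2 change -1.24). SEC13, a further Y complex subunit outside the name rule, which also coats transport vesicles, was not called, at 28.2 and 23.6 RPKM in GADD45g cells, against 25.9 and 26.1 RPKM in control cells (log2 change -0.01 ± 0.23, SE; adjusted p = 0.979). NUP98, which was grouped apart here, also encodes the Y complex subunit NUP96. It was not called either (log2 change -0.25, adjusted p = 0.457). NUP107, in the stem of the Y, was at 5.65 and 5.97 RPKM in GADD45g cells, against 17.02 and 15.3 RPKM in control cells (log2 change -1.33 ± 0.22, SE; adjusted p = 0.000774). NUP37, a component of one arm, was at 4.91 and 4.76 RPKM in GADD45g cells, against 16.1 and 13.04 RPKM in control cells, 3.02-fold lower by group means. SEH1L, which also belongs to the GATOR2 complex of amino acid sensing, was at 2.68 and 2.58 RPKM in GADD45g cells, against 9.22 and 6.22 RPKM in control cells (2.93-fold lower). In the 7 genes that fell both GADD45g values were below both controls. NUP160 averaged 4.804 ± 0.503 RPKM in GADD45g cells and 12.9 ± 0.9297 RPKM in control cells (SD, n = 2 each), NUP133 averaged 9.08 ± 0.492 RPKM in GADD45g cells and 19.9 ± 1.51 RPKM in control cells, and NUP43 averaged 12.5 ± 0.741 RPKM in GADD45g cells and 25.8 ± 2.95 RPKM in control cells. Their log2 changes were -1.26, -1.05 and -0.99. NUP85 changed least, at 4.64 and 4.99 RPKM in GADD45g cells, against 7.62 and 9.05 RPKM in control cells (log2 change -0.68 ± 0.22, SE; adjusted p = 0.0286). Its call was lost after each of the 4 scalings (0.0851 to 0.135), without GADD45g 1, GADD45g 2 or control 2 (0.0934 to 0.169) and with no filter (0.0836). The other 6 were called under each of the 4 scalings and without any 1 library. Summed, the 7 genes stood at 43.02 and 45.9 RPKM in GADD45g libraries, against 112 and 98.5 RPKM in controls.

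The inner ring lines the pore wall and links the scaffold to the channel. Of its 5 genes 4 fell (80.0%, median -0.89), beside 26.7% of all tested genes. NUP93, the linker that holds the channel nucleoporins, was at 4.54 and 3.7999 RPKM in GADD45g cells, against 13.1 and 15.2 RPKM in control cells (log2 change -1.55 ± 0.22, SE; adjusted p = 0.000342). NUP35, a small membrane-binding member, had 46 and 44 reads in GADD45g libraries, against 329 and 201 reads in controls, or 0.602 and 0.681 RPKM in GADD45g cells, against 4.33 and 3.17 RPKM in control cells. By group means NUP35 was 5.84-fold lower, more than its log2(RPKM + 1) change of -1.52 shows, since the pseudocount weighs on a low gene. The large scaffold protein NUP205 was at 9.99 and 11.97 RPKM in GADD45g cells, against 20.6 and 21.6 RPKM in control cells (log2 change -0.89 ± 0.22, SE; adjusted p = 0.00941), and its call was lost without GADD45g 1 (0.0881). NUP155, another large scaffold protein, was at 3.18 and 4.34 RPKM in GADD45g cells, against 6.47 and 7.35 RPKM in control cells (log2 change -0.74 ± 0.23, SE; adjusted p = 0.0233), a call lost after each of the 4 scalings (0.0647 to 0.122), without any 1 of the 4 libraries (0.0528 to 0.22) and with no filter (0.105). NUP188, a relative of NUP205, was at 6.46 and 7.77 RPKM in GADD45g cells, against 9.16 and 14.7 RPKM in control cells and was not called (adjusted p = 0.0707). It was called lower without control 1 (0.0339), with a filter at 5 RPKM (0.0339), with a robust prior (0.0395), with the replicate block (0.02403) and with voom (0.0296). The groups were apart in all 5 genes.

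Membrane nucleoporins anchor the pore in the envelope, and 2 of 3 tested genes fell, beside 26.7% of all tested genes. The third, POM121, is outside the name rule and was at 6.91 and 9.43 RPKM in GADD45g cells, against 5.69 and 10.3 RPKM in control cells, with the groups overlapping (log2 change 0.06 ± 0.28, SE; adjusted p = 0.886). NUP210 (gp210, ENSG00000132182), a glycoprotein with a single membrane span whose promoter is printed above, was at 12.3 and 12.5 RPKM in GADD45g cells, against 58.9 and 103 RPKM in control cells. The GADD45g values were close together, and the controls differed from each other beyond counting error, with 95% counting intervals of 57.7 to 60.1 and 100.8 to 104.3 RPKM. NUP210 was 6.53-fold lower by group means (log2 change -2.56 ± 0.28, SE; adjusted p = 7.40e-05), and its log2 change was -2.95 to -2.16 with 1 library left out. Of the summed RPKM of the 28 nucleoporin genes, NUP210 supplied 6.08% and 5.27% in GADD45g libraries, against 14.8% and 22.5% in controls. NDC1, a protein with several membrane spans that is needed to build pores, was at 2.803 and 3.0 RPKM in GADD45g cells, against 16.9 and 10.96 RPKM in control cells (log2 change -1.91 ± 0.24, SE; adjusted p = 0.000182). NUP210L, a relative of NUP210, had 12 and 15 reads in GADD45g libraries, against 13 and 13 reads in controls and was below the filter.

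In the central channel, where FG repeats form the permeability barrier, 1 of 3 tested genes fell (33.3%, median -0.33), beside 26.7% of all tested genes. NUP54 was at 4.99 and 6.72 RPKM in GADD45g cells, against 10.6 and 10.03 RPKM in control cells (log2 change -0.73 ± 0.23, SE; adjusted p = 0.02499), a call lost after each of the 4 scalings (0.0707 to 0.111), without any 1 of the 4 libraries (0.0501 to 0.223) and with no filter (0.0912). NUP62, its partner in the channel, was at 16.2 and 13.5 RPKM in GADD45g cells, against 16.8 and 21.2 RPKM in control cells, with the 95% interval of the log2 change from -0.85 to 0.19. In GENCODE 29, 10.4% of the exon bases of NUP62 overlap ATF5 on the other strand, and whether counting used strand is unknown here. NUP58, the other partner, was at 13.1 and 14.6 RPKM in GADD45g cells, against 10.5 and 8.12 RPKM in control cells, with both GADD45g values above both controls. It was not called (log2 change 0.54 ± 0.23, SE; adjusted p = 0.0873) but was called higher after each of the 4 scalings (0.0219 to 0.0316). Its share of the nucleoporin RPKM was 6.52% and 6.17% in GADD45g libraries, against 2.65% and 1.78% in controls. NUP62CL, a relative of NUP62, had 2 and 0 reads in GADD45g libraries, against 2 and 0 reads in controls and was not tested; a count of 0 allows up to 0.101 RPKM in GADD45g 2 and 0.102 RPKM in control 2 (3 reads).

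On the cytoplasmic face, where export complexes are taken apart, 1 of 5 genes fell (median -0.47). NUP42, a partner of the helicase activator GLE1, was at 7.36 and 7.29 RPKM in GADD45g cells, against 16.5 and 11.4 RPKM in control cells (log2 change -0.82 ± 0.24, SE; adjusted p = 0.0194), a call lost after TMM scaling, after quantile normalization and after centring (0.0645 to 0.0781), without GADD45g 1, GADD45g 2 or control 1 (0.0917 to 0.104) and with no filter (0.0955). NUP214 and NUP88 bind each other, and both had GADD45g values below both controls without a call. NUP214 was at 3.62 and 4.99 RPKM in GADD45g cells, against 5.81 and 9.58 RPKM in control cells (adjusted p = 0.0593), and was called lower without control 1 (0.0363), with a filter at 5 RPKM (0.0305), with a robust prior (0.0292), with the replicate block (0.0119) and with voom (0.0136). NUP88 was at 6.46 and 8.23 RPKM in GADD45g cells, against 9.27 and 11.8 RPKM in control cells (adjusted p = 0.137). RANBP2, the filament protein with SUMO ligase activity, was at 12.996 and 17.5 RPKM in GADD45g cells, against 14.2 and 15.1 RPKM in control cells, with a 95% interval of the log2 change from -0.48 to 0.55. RANBP2 has near-identical copies (the RGPD genes), so its level depends on how shared reads were assigned. AAAS (aladin) was at 9.89 and 7.73 RPKM in GADD45g cells, against 7.3996 and 8.72 RPKM in control cells, and the groups overlapped.

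The nuclear basket receives mRNA for export. Of its 3 genes 0 were called, beside 26.7% of all tested genes called lower, and all had negative changes (median -0.51). By limma, unadjusted p was under 0.05 for 1 of them, and voom called 1, NUP50. TPR, the main basket filament, was at 17.3 and 30.9 RPKM in GADD45g cells, against 25.9 and 40.6 RPKM in control cells, and in each group library 2 was higher than library 1. NUP153 was at 10.2 and 15.5 RPKM in GADD45g cells, against 16.3 and 20.6 RPKM in control cells (adjusted p = 0.145), with the groups apart. NUP50, which helps to release cargo from importin alpha, was at 4.65 and 4.24 RPKM in GADD45g cells, against 7.77 and 6.14 RPKM in control cells (adjusted p = 0.0744; 0.0488 with voom). NUP98, whose gene also encodes the scaffold protein NUP96 and is a fusion partner in acute myeloid leukaemia, was at 11.8 and 15.4 RPKM in GADD45g cells, against 13.8 and 19.01 RPKM in control cells. The groups overlapped for NUP98 (95% interval of the log2 change -0.80 to 0.30).

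**Figure D3:**
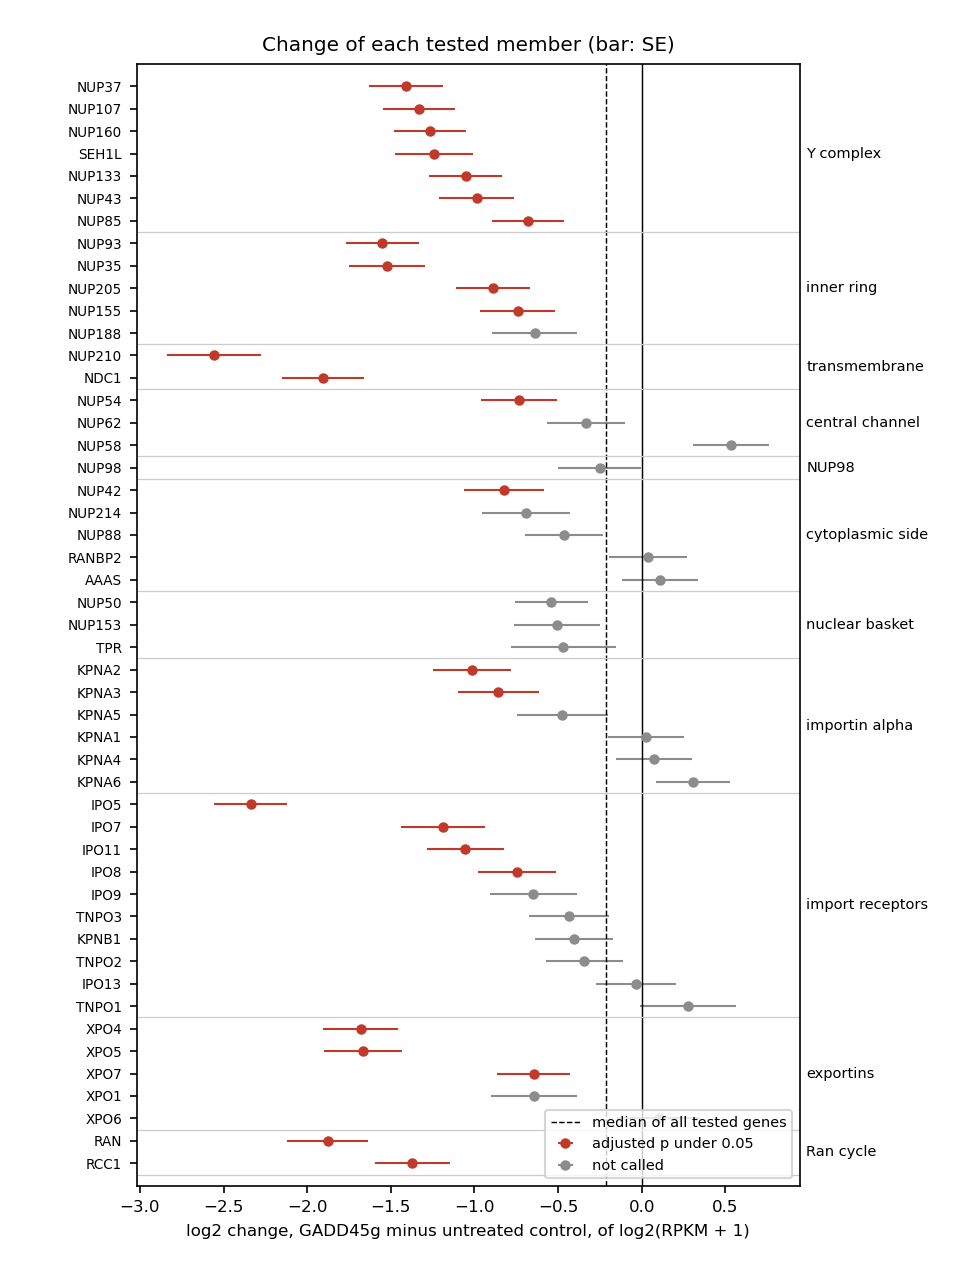
Change in log2(RPKM + 1), GADD45g minus untreated control, with its SE for the 49 tested genes by role, red where the adjusted p was under 0.05. The decreases run to -2.56 for NUP210, and the dashed line marks the median of all tested genes at -0.21.

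Importin alpha proteins read the classical nuclear localization signal and hand cargo to importin beta. Of 6 tested genes KPNA2 and KPNA3 fell (33.3%, beside 26.7% of all tested genes). The median change of the 6, -0.22, was near that of all genes and turned to 0.01 when libraries were centred on their median. KPNA2, the most abundant of them here and known for high levels in dividing cells, was at 36.5 and 38.8 RPKM in GADD45g cells, against 75.8 and 78.2 RPKM in control cells (log2 change -1.01 ± 0.23, SE; adjusted p = 0.00564). KPNA3, the sequence of whose promoter is printed above, was at 16.3 and 18.4 RPKM in GADD45g cells, against 37.1 and 27.9 RPKM in control cells (log2 change -0.86 ± 0.24, SE; adjusted p = 0.0164). That decrease missed the threshold after TMM scaling and after centring (0.0656 to 0.0705), without GADD45g 1, GADD45g 2 or control 1 (0.0539 to 0.101) and with no filter (0.0683). KPNA1, KPNA4 and KPNA6 lay within 10.4 to 13.9 RPKM in GADD45g libraries and within 9.34 to 12.1 RPKM in controls. The 95% interval of the log2 change was -0.47 to 0.53 for KPNA1, -0.43 to 0.57 for KPNA4 and -0.18 to 0.80 for KPNA6. KPNA6 alone of these had both GADD45g values above both controls. In GENCODE 29, 16.3% of the exon bases of KPNA1 overlap a gene on the other strand, AC083798.2. KPNA5 was at 1.6003 and 1.19 RPKM in GADD45g cells, against 3.297 and 1.56 RPKM in control cells and was called lower without control 2 (0.0349). KPNA7 had 2 and 0 reads in GADD45g libraries, against 2 and 1 reads in controls and was not tested; the 0 in GADD45g 2 allows up to 0.109 RPKM (3 reads).

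Shares were also taken within the importin alpha family. Of the summed RPKM of the 7 genes, KPNA2 supplied 41.4% and 39.95% in GADD45g libraries, against 50.6% and 56.1% in controls. KPNA3, the other gene that fell, supplied 18.5% and 18.97% in GADD45g libraries, against 24.7% and 20.01% in controls. Of the genes that were not called, KPNA6 supplied 14.3% and 14.3% in GADD45g libraries, against 6.42% and 8.22% in controls. KPNA1 supplied 11.8% and 13.5% in GADD45g libraries, against 8.05% and 7.78% in controls. KPNA4 supplied 12.2% and 12% in GADD45g libraries, against 7.995% and 6.71% in controls. For these 5 genes the groups were apart, while the shares of KPNA5 overlapped. Shares of a family sum to a whole, so a smaller KPNA2 share goes with larger shares of the others. The shares were not tested.

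Among receptors of the importin beta type, 4 of 10 tested genes fell (40.0%, median -0.54), beside 26.7% of all tested genes. IPO5 (ENSG00000065150), a carrier of ribosomal proteins and histones, was at 6.59 and 6.75 RPKM in GADD45g cells, against 38.8 and 36.7 RPKM in control cells. Values within each group were close, and IPO5 was 5.66-fold lower by group means (log2 change -2.34 ± 0.22, SE; adjusted p = 2.99e-05), with a log2 change of -2.38 to -2.30 when 1 library was left out. Its share of the RPKM of the 11 import receptor genes was 4.46% and 4.31% in GADD45g libraries, against 16.02% and 15.1% in controls. IPO7, a carrier of ribosomal proteins whose promoter is printed above, was at 12.9 and 15.5 RPKM in GADD45g cells, against 39.6 and 28.3 RPKM in control cells (log2 change -1.19 ± 0.25, SE; adjusted p = 0.00346). IPO11 had 111 and 117 reads in GADD45g libraries, against 488 and 285 reads in controls, 3.35-fold lower by RPKM, and its call (adjusted p = 0.00432) was lost without GADD45g 1 (0.0507) and with no filter (0.0658). In GENCODE 29 it shares 17.0% of its exon bases with LRRC70 and 5.7% with KIF2A, both on the same strand. IPO8, a relative of IPO7, was at 5.17 and 4.66 RPKM in GADD45g cells, against 10.5 and 7.56 RPKM in control cells (log2 change -0.75 ± 0.23, SE; adjusted p = 0.0253), a call lost after each of the 4 scalings (0.0628 to 0.116), without GADD45g 1, GADD45g 2 or control 1 (0.0954 to 0.153) and with no filter (0.108).

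The other 6 tested import receptors were not called. KPNB1, the importin beta that partners importin alpha, was at 38.2 and 41.5 RPKM in GADD45g cells, against 50.3 and 55.9 RPKM in control cells, below both controls in both GADD45g libraries (95% interval of the log2 change -0.92 to 0.11). TNPO3, the carrier of SR splicing proteins, was at 34.6 and 38.1 RPKM in GADD45g cells, against 44.8 and 54.4 RPKM in control cells (95% interval -0.96 to 0.09). TNPO1, the transportin that imports hnRNP A1, was at 19.8 and 17.3 RPKM in GADD45g cells, against 20.6 and 10.99 RPKM in control cells, with the groups overlapping. TNPO2, its close relative, was at 12.1 and 11.2 RPKM in GADD45g cells, against 13.3 and 17.1 RPKM in control cells (adjusted p = 0.261). IPO13, which carries cargo in both directions, was at 9.89 and 9.52 RPKM in GADD45g cells, against 8.29 and 11.9 RPKM in control cells (95% interval -0.56 to 0.49). IPO9, a histone carrier, was at 7.804 and 11.04 RPKM in GADD45g cells, against 12.6 and 18.1 RPKM in control cells, apart from the controls but not called (adjusted p = 0.0704). It was called lower with a filter at 5 RPKM (0.0321), with a robust prior (0.0401), with the replicate block (0.0242) and with voom (0.0296). IPO4 had 1 and 3 reads in GADD45g libraries, against 2 and 2 reads in controls and was not tested. In GENCODE 29, 69.3% of its exon bases are shared with AL136295.4 on the same strand, and how shared reads were treated is unknown here, so the listed level may not be that of the transcript.

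Exportins carry proteins and RNAs out of the nucleus, and 3 of 5 fell (60.0%, median -0.65), beside 26.7% of all tested genes. XPO4, the exporter of the translation factor eIF5A, was at 1.18 and 1.37 RPKM in GADD45g cells, against 7.299 and 5.405 RPKM in control cells, 4.98-fold lower by group means (log2 change -1.68 ± 0.23, SE; adjusted p = 0.000242). XPO5, which exports precursor microRNAs, was at 9.11 and 10.3 RPKM in GADD45g cells, against 29.7 and 36.6 RPKM in control cells (log2 change -1.67 ± 0.23, SE; adjusted p = 0.000293). For both genes the gap between the groups was wider than the spread within either. XPO7 was at 13.6 and 13.9 RPKM in GADD45g cells, against 21.7 and 22.4 RPKM in control cells (log2 change -0.65 ± 0.22, SE; adjusted p = 0.0378), a call lost after each of the 4 scalings (0.108 to 0.178), without any 1 of the 4 libraries (0.0761 to 0.157) and with no filter (0.0503). XPO1 (CRM1), the general exportin for leucine-rich export signals, was at 26.7 and 29.6 RPKM in GADD45g cells, against 53.8 and 36.7 RPKM in control cells and was not called (log2 change -0.64 ± 0.26, SE; adjusted p = 0.0707). It was called lower without control 2 (0.0372), with a filter at 5 RPKM (0.04497), with the replicate block (0.0289) and with voom (0.0379). XPO6, the exportin of actin, was at 34.8 and 36.1 RPKM in GADD45g cells, against 27.8 and 39.05 RPKM in control cells, with the groups overlapping (95% interval of the log2 change -0.45 to 0.65). Of the exportin RPKM, XPO6 supplied 40.8% and 39.5% in GADD45g libraries, against 19.8% and 27.9% in controls. XPO5 supplied 10.7% and 11.3% in GADD45g libraries, against 21.2% and 26.1% in controls. Exportin shares also sum to a whole, and XPO6 itself was not called (limma, adjusted p = 0.774).

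**Figure D4:**
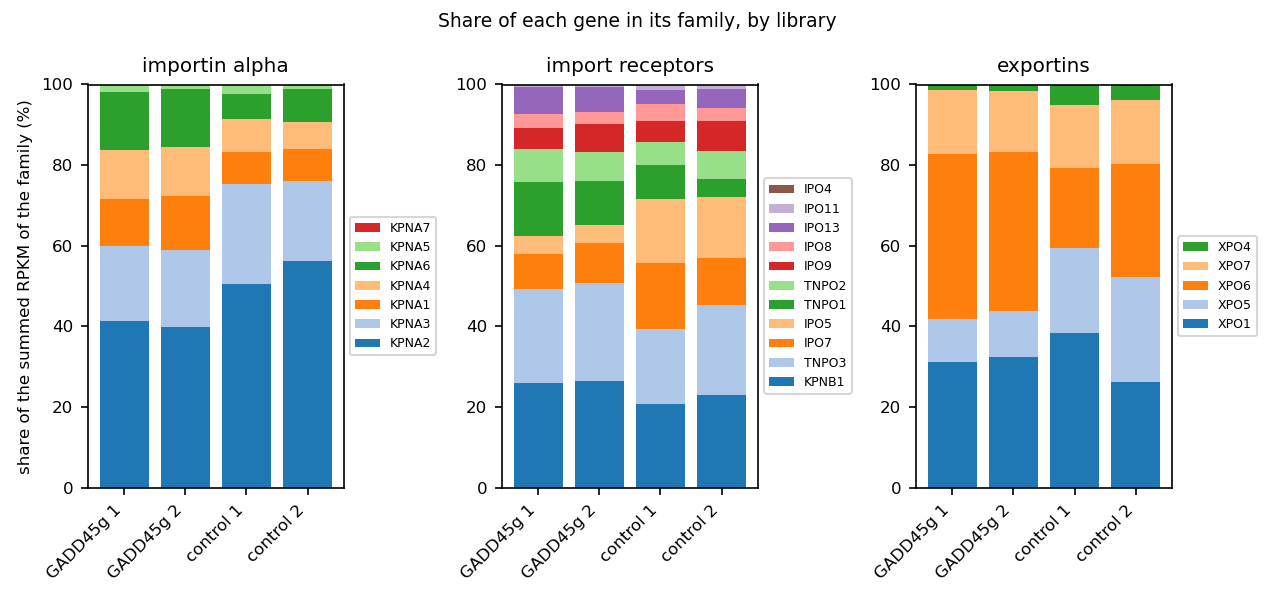
Share in percent of the summed RPKM of each receptor family supplied by each gene, for importin alpha, import receptors and exportins, with GADD45g libraries left of the untreated controls. KPNA2, KPNA3, IPO5, IPO7, IPO11, XPO4 and XPO5 take smaller shares in both GADD45g libraries than in either control. KPNA1, KPNA4, KPNA6, KPNB1, TNPO1, TNPO2, TNPO3, IPO13 and XPO6 take larger ones. Shares of a family sum to a whole.

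RAN and RCC1, which give transport its direction, both fell. RAN, the small GTPase, was at 16.9 and 12.7 RPKM in GADD45g cells, against 60.4 and 52.9 RPKM in control cells, 3.83-fold lower by group means (log2 change -1.88 ± 0.24, SE; adjusted p = 0.000193). RAN has processed copies elsewhere in the genome, so its level depends on how shared reads were assigned. RCC1, its exchange factor, was at 10.998 and 9.15 RPKM in GADD45g cells, against 27.4 and 27.7 RPKM in control cells (log2 change -1.37 ± 0.22, SE; adjusted p = 0.000833), and 6.2% of its exon bases are shared with SNHG3 on the same strand. For both genes the groups were apart, and both calls held under every alternative in which the genes were tested.

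Summed over the 53 genes, transport transcripts stood at 551 and 603 RPKM in GADD45g libraries, against 1017 and 1060 RPKM in controls, a ratio of group means of 0.556. The ratio was 0.163 for membrane nucleoporins, 0.295 for RAN and RCC1, 0.422 for the Y complex (without NUP98 and SEC13) and 0.461 for the inner ring. SEC13 averaged 25.9 RPKM in GADD45g cells and 25.97 RPKM in control cells, where the Y complex sum averaged 44.5 and 105 RPKM. The membrane sum leaves out POM121, which averaged 8.17 RPKM in GADD45g cells and 8.02 RPKM in control cells. NUP210 supplied on average 80.7 of the 94.7 RPKM of the membrane sum in controls. The ratio was 0.627 for import receptors, 0.6302 for exportins and 0.6403 for importin alpha. The nuclear basket stood at 0.706, the cytoplasmic face at 0.784 and the central channel at 0.895, and no difference between roles was tested. The nucleoporin sum had a ratio of 0.514, or 0.598 without NUP210.

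**Figure D5:**
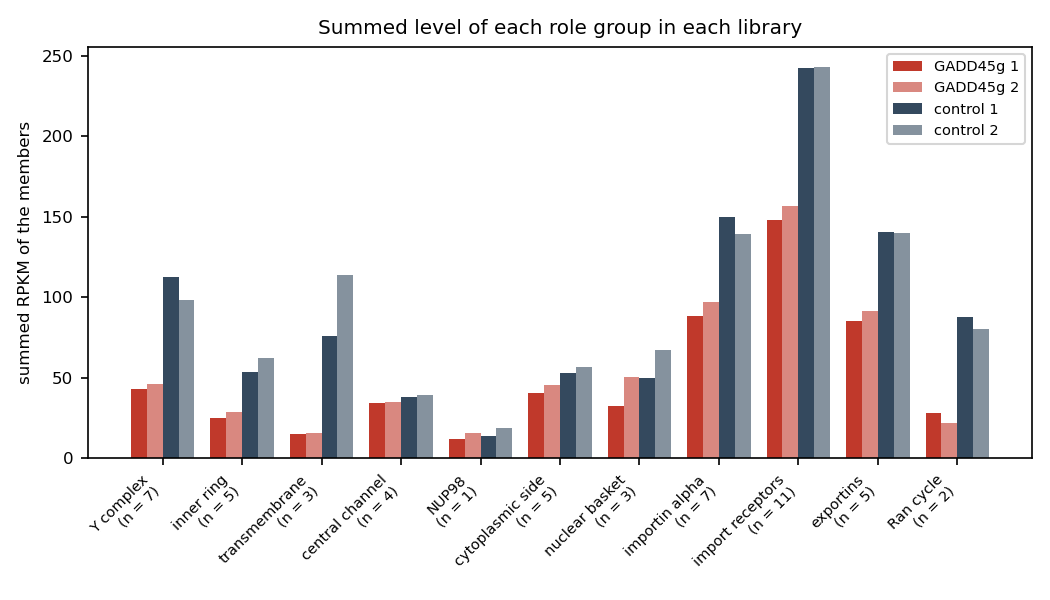
Summed RPKM of the genes of each role in each library, with GADD45g in red left of the untreated controls. The membrane and Ran cycle sums are lowest relative to their controls, and the central channel sums are nearest to them. The membrane sum is mostly NUP210 and leaves out POM121, and the Y complex sum leaves out NUP98 and SEC13.

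Genes of the pathway outside the name rule were examined as 4 lists. Of 10 tested transport receptors and Ran regulators 4 (40.0%) fell and 0 rose, beside 26.7% lower and 12.2% higher over all tested genes. Unadjusted p was under 0.05 for 0 with a positive change, and voom called 0 higher. Under each of the 4 scalings 4 fell and 0 rose, where TMM scaling called 19.0% of all genes lower and 17.8% higher. RANBP1, which assists GTP hydrolysis by Ran, averaged 4.63 ± 0.697 RPKM in GADD45g cells and 20.8 ± 1.73 RPKM in control cells (log2 change -1.96, adjusted p = 9.05e-05). CSE1L, which returns importin alpha to the cytoplasm, averaged 14.9 ± 2.65 RPKM in GADD45g cells and 48.5 ± 5.63 RPKM in control cells (3.25-fold lower). XPOT, the tRNA exportin, and RANGAP1, the GTPase activator of Ran, were 2.73-fold and 2.398-fold lower. Of 5 tested pore components with other symbols, 2 (40.0%) fell, beside the same 26.7% of all tested genes. These were GLE1 and AHCTF1 (ELYS, which seeds pores on chromatin), with adjusted p of 0.0275 and 0.0419. The call of GLE1 was lost after each of the 4 scalings (0.0838 to 0.131) and without any 1 of the 4 libraries (0.0639 to 0.1301), and that of AHCTF1 was lost after each of the 4 scalings (0.115 to 0.213), without any 1 of the 4 libraries (0.0798 to 0.312) and with no filter (0.139). RAE1 was not called (adjusted p = 0.177), nor were POM121 and SEC13, described above with their complexes; SEC13 was named after its values were seen.

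In the mRNA export list 7 of 20 tested genes (35.0%) fell and 0 rose, beside 26.7% lower and 12.2% higher over all tested genes. After TMM scaling 5 of the 20 fell and 1 rose, beside 19.0% and 17.8% of all genes. The gene that rose was NXF1, the main mRNA export receptor, named after its values were seen, at 16.5 and 16.8 RPKM in GADD45g cells, against 10.3 and 11.1 RPKM in control cells (log2 change 0.59 ± 0.22, SE; adjusted p = 0.0512). It was called higher after each of the 4 scalings (0.0116 to 0.0183), with a pseudocount of 5 (0.0477), with a filter at 5 RPKM (0.0419), with a robust prior (0.0476), with the replicate block (0.0419) and with voom (0.0424). The helicase DDX39A was 2.44-fold lower, the adaptor ALYREF 2.38-fold, and THOC1 and THOC6 of the THO complex 2.61-fold and 2.62-fold. The THOC6 call was lost without GADD45g 2 or control 1 (0.0533 to 0.0631) and with no filter (0.0819). In the list of nuclear lamina and envelope genes 6 of 14 tested genes (42.9%) fell and 2 rose, beside the same 26.7% and 12.2% of all genes. With TMM scaling 5 of the 14 fell and 2 rose, beside 19.0% and 17.8% of all genes. LMNB1, a B-type lamin, averaged 2.32 ± 0.666 RPKM in GADD45g cells and 17.6 ± 0.297 RPKM in control cells (7.58-fold lower, adjusted p = 2.51e-05). LMNB2 and TMPO (LAP2), which binds lamins, were 2.76-fold and 2.64-fold lower. LMNA, the A-type lamin, averaged 51.5 ± 13.6 RPKM in GADD45g cells and 24.5 ± 0.0925 RPKM in control cells (log2 change 1.02, adjusted p = 0.008899), a call lost without GADD45g 1, control 1 or control 2 (0.0542 to 0.0938) and with no filter (0.0634). LEMD2, an inner membrane protein named here after its values were seen, was the other gene that rose (log2 change 0.74, adjusted p = 0.0248), a call lost without any 1 of the 4 libraries (0.0559 to 0.173) and with no filter (0.0607). The medians were -0.46 for pore components, -0.56 for receptors and Ran regulators, -0.47 for mRNA export and -0.57 for lamina and envelope genes.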

How the data were processed

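Values are the authors' RPKM, deposited as 1 value per versioned Ensembl ID for each library, per the file headers. Processing notes of the submitters list TopHat, Cuffnorm and Cuffdiff with hg19; versions, roles, strand and the treatment of shared reads are unknown here. The table of GADD45g 1 as used here ends after 27332 IDs, against 57820 in the others, so IDs present in all 4 were analysed; all 53 genes are among them.

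IDs were matched to symbols in a table of gene names (51996 matched), with biotypes from RefSeq, and values of the same symbol were added. Genes averaging at least 1 RPKM (10771) were compared on log2(RPKM + 1), unscaled, with limma 3.58.1 in R 4.3.3 (eBayes with trend, two-sided, Benjamini-Hochberg; residual df 2, prior df 8.72). Folds of group means use RPKM itself. Depth was solved from values of few reads at IDs whose model is identical in GENCODE 29, where 100.0% came out whole within 0.01. Lengths were then solved for the other IDs, taking the fit nearest to GENCODE 29, which gave whole reads for 98.4% of 10818 IDs. Only 654 of 9521 solved IDs allowed 1 length, and of the 53 genes 3 allowed 1, 42 allowed 2 and 8 more; read counts, their intervals and voom rest on the length chosen, and RPKM and the limma fit on RPKM do not. Read intervals cover counting error only. Exon overlaps with other genes are not given for every gene that has one.

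Genes, roles and lists were chosen with earlier results of these data known. Every gene of the name rule is named, with the 4 tested genes of smallest adjusted p in each pathway list. Alternatives covered the pseudocount, the filter, 4 scalings, the prior, the sum over a symbol, the replicate block, each library left out and voom on recovered reads. Not every marker list is reported here. The limma code was tested on simulated data.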

Additional observations from a re-analysis of the deposited data

How the results depend on the processing

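Of 17 alternatives to the unscaled fit, 16 were planned and 1 (voom) was chosen after seeing the data. The 9 decreases lost in some setting were all lost without GADD45g 1, and 7, 6 and 4 of them without GADD45g 2, control 1 and control 2. The count of transport genes called lower was 17 to 24 with 1 library left out, and the median change was -0.87 to -0.60. With upper quartile scaling, TMM scaling, quantile normalization and centring, 1 gene was called higher under each, and the median was -0.54, -0.47, -0.48 and -0.46. The median was -0.80 and -0.49 with pseudocounts of 0.1 and 5, and -0.81 with voom. With no filter, 1639 of all genes were called lower and 823 higher (2462 in all). With 1 library left out, 1766 to 2449 were lower and 798 to 1133 higher (2597 to 3582 in all). Other pathway genes called lower numbered 19, but 11 with no filter and 11 to 16 with 1 library left out. The cause of these changes was not tested.

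The replicate block called 30 transport genes lower and 0 higher, with 3393 of all genes lower. Deviations of same-numbered libraries correlated at r = 0.35 across genes, which are not independent, but the titles give only a suffix, so the pairing is a hint from the data. The planned comparison of importin alpha proteins was not run. With 2 libraries a group the test rests largely on a spread shared across genes, and each fit without 1 library assumes that the lone sample varies like the other group. P-values measure the spread between these libraries only.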
